A study of Mus musculus with 9 samples.

Results

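The tumour necrosis factor (TNF) receptor superfamily in regulatory T cells (Tregs), CD4 T cells that depend on the transcription factor Foxp3 and keep other immune cells in check, is described here through 10 of its genes: Tnfrsf4, Tnfrsf9, Tnfrsf18, Tnfrsf1a, Tnfrsf1b, Tnfrsf25, Tnfrsf26, Cd27, Fas and Tnfrsf14. They were taken by symbol from a list drawn up with earlier results of these data known, and all 10 were found among the 23420 genes measured. RNA was sequenced from 9 libraries of wild-type mouse Tregs in 3 groups of 3. The synovial group came from digested paws of mice with collagen-induced arthritis (CIA), a model of joint inflammation; the arthritic node group came from lymph nodes draining those joints; and the control node group came from the corresponding nodes of untreated control mice. All cells were sorted on a yellow fluorescent protein (YFP) reporter of Foxp3, so every group carries the reporter. Synovial and arthritic node libraries bearing the same mouse number were read as pairs from 1 animal, whereas no synovial Tregs of control mice were sampled. The labels name no strain, age or sex for the mice.

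TNF receptors are membrane proteins that bind trimeric ligands of the TNF family through cysteine-rich repeats. Some, such as OX40, 4-1BB, GITR, TNFR2 and CD27, recruit TRAF adaptor proteins and activate NF-kB. Others, such as TNFR1, Fas and DR3, carry a death domain that can recruit caspase-activating or NF-kB-activating complexes. OX40, GITR and TNFR2 are known as surface receptors of Tregs, and their genes are known targets of T cell activation.

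Each library held 11300406 to 12855435 reads assigned to genes. Values are reads per gene scaled by each library's size factor, called normalized counts below, and are given per library or as mean ± SD of 3 libraries. A gene was called changed when its limma adjusted p (Benjamini-Hochberg, over the 11357 genes tested) was under 0.05, and log2 differences carry their standard error. The limma p-values rest on 1 spread per gene, pooled over the 3 groups of 3 libraries and moderated across genes. Those between the nodes therefore carry the synovial spread too. The leading principal component, with 53.1% of the variance, set the synovial libraries apart from those of nodes. Library 1 of the control nodes lay by itself on the next component (83.5, against -41.4 to 18.8 for the others). Without that library 6 receptor genes were still called higher and 1 lower in synovium than in control nodes, and 0 were called between the nodes. Treg and T cell markers summed to 108858 to 113295 normalized counts in synovium, 51672 to 58269 in arthritic nodes and 56552 to 59368 in control nodes. Between synovium and arthritic node 3 of the 7 tested were called higher (Il2ra, Ctla4 and Ikzf2) and 0 lower, with a median log2 difference of 0.79. Of all genes, 17.9% were called higher and 15.9% lower. Cd3d was not called (-0.13, limma adjusted p = 0.304). It was lower in synovium after quantile normalization (-0.65, 5.45e-05) and with library totals (-0.45, 0.00157). Cd3e had means of 11010.1 (synovium), 11035 (arthritic nodes) and 10873 (control nodes); it was not called between tissues (-0.01, limma adjusted p = 0.955) but was lower in synovium after quantile normalization (-0.52, 0.00415) and with library totals (-0.32, 0.0356). Foxp3, the gene of the sorting reporter, stood at 465 ± 65.3, 269 ± 41.0 and 266 ± 123. Its tissue difference was not called (limma, adjusted p = 0.0597). It passed in limma with the mouse number as a block (0.0232) and without control node library 2 (0.0379) or 3 (0.0215). DESeq2 called it too (0.0464). In bulk RNA, fewer cells of a type and less RNA per cell cannot be told apart.

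In Tregs of arthritic mice, 6 of the 10 receptor genes rose from node to synovium (Tnfrsf9, Tnfrsf4, Tnfrsf1b, Tnfrsf18, Fas and Tnfrsf25), Tnfrsf26 fell, and Cd27, Tnfrsf1a and Tnfrsf14 did not pass the test. Across all genes tested, 17.9% were called higher and 15.9% lower in this comparison. The median log2 difference was 1.08 over the 10 receptors and -0.00 over all genes tested. The synovial and node libraries did not overlap for 6 receptors that were higher and 2 that were lower (Tnfrsf26 and Cd27), against 25.2% and 23% of all genes. The plot of values by library shows these separations gene by gene.

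**Figure D1:**
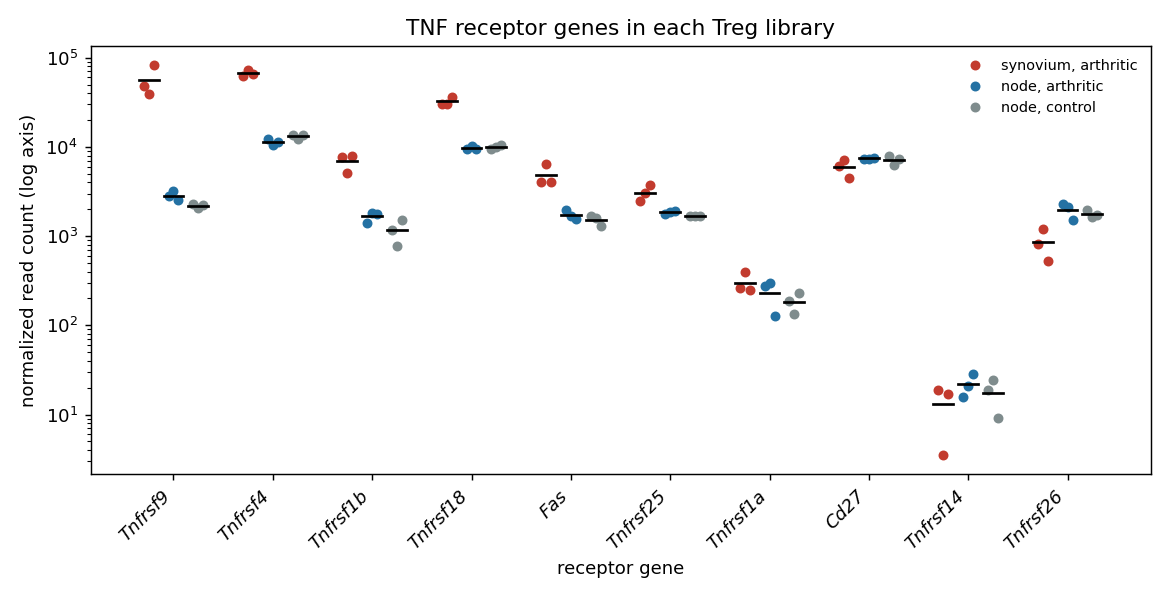
Normalized read count (log axis) of the 10 receptor genes in each of the 9 Treg libraries; each point is a library, coloured by group, and each bar is the mean of 3. For Tnfrsf9, Tnfrsf4, Tnfrsf1b, Tnfrsf18, Fas and Tnfrsf25 the synovial points lie above all node points, and for Tnfrsf26 they lie below.

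Tnfrsf9, which encodes the costimulatory receptor 4-1BB, differed most of the 10. It lies on chromosome 4 (GRCm38, chr4:150914562-150946102, + strand). Its windows among the RefSeq promoters (GRCm38.p6, 250 bases before to 50 after a start site) were searched on both strands for 3 motifs: the NF-kB consensus, the AP-1 site TGANTCA and the forkhead site TGTTTAC. The NF-kB consensus was found in 1 of the 11 windows of the 9 receptors with an entry, at the inner start site of Tnfrsf9, and in 4.51% of all 32841 promoters of this length. The stretch is shown because it is the only such match among the receptors. Of the 250 bases before this inner start site, 81 lie in annotated exons on the same strand. Capitals mark 11 bases holding overlapping matches, 43 to 33 bases before that start site, within 30 bases at chr4:150927946-150927975 on the + strand.
Tnfrsf9: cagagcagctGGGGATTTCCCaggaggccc
A match of letters describes the sequence only.

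Tnfrsf9 had 47838, 39265 and 81862 normalized counts in synovial libraries 1 to 3, 2816, 3166 and 2520.2 in the arthritic node libraries, and 2279, 2089.9 and 2216 in the control node libraries. Every synovial library lay far above every node library, and synovial library 3 was the highest. The mean of 56322 ± 22530.3 in synovium was 19.9 times the arthritic node mean of 2834 ± 323, a log2 difference of 4.25 ± 0.21 (limma, adjusted p = 3.76e-08). Within mice 1, 2 and 3, synovium exceeded node by 17.0, 12.4 and 32.5 times. Without synovial library 3 its log2 difference was 3.94 (limma, adjusted p = 1.31e-07). The coefficient of variation among synovial libraries was 40.0% for Tnfrsf9. Only Tnfrsf14, with 17, 3 and 15 reads there, had a larger one (63.6%). The other receptors ran from 8.14% for Tnfrsf4 to 39.6% for Tnfrsf26. The immediate early gene Fos was also highest in synovial library 3, at 6792, 4109.7 and 17607 in libraries 1 to 3. It is 1 of 15 listed digestion and stress genes, whose summed count ran from 139885 to 187374 over the synovial libraries. The part of Fos in the spread of Tnfrsf9 was not tested.

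Tnfrsf4, which encodes OX40, a TRAF-binding costimulatory receptor, lies on the same chromosome at chr4:156013843-156016612 on the + strand. It had 61791, 72569.9 and 65988 normalized counts in synovium, 12129.6, 10499.7 and 11341 in arthritic nodes, and 13578, 12256 and 13494 in control nodes. The synovial libraries were all above the node libraries, and the arthritic node libraries were all below the control ones. Tnfrsf4 was 5.90 times higher in synovium than in arthritic nodes by the means (66783 ± 5433 against 11324 ± 815), and its log2 difference was 2.56 ± 0.10 (limma, adjusted p = 5.49e-09). The 3 mice gave ratios of 5.09, 6.91 and 5.82.

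Tnfrsf18, which encodes GITR, a receptor highly expressed on Tregs, begins 9551 bases beyond the end of Tnfrsf4, at chr4:156026164-156028895, with 2 annotated genes between them. It had 30472, 30279 and 36432 normalized counts in synovium, 9350.2, 10114 and 9470.1 in arthritic nodes, and 9365, 10033 and 10443 in control nodes. The groups of node libraries overlapped each other and lay below all synovial libraries. Tnfrsf18 rose 3.36 times from arthritic node to synovium, a log2 difference of 1.74 ± 0.10 (limma, adjusted p = 1.05e-07), with within-mouse ratios of 3.26, 2.99 and 3.85. An antisense gene, Gm16008, overlaps 414 of its exon bases, and whether counting used strand was not given in the sources used here, so its level is uncertain to that extent.

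The receptors for TNF itself differed from one another. Tnfrsf1b encodes TNFR2, the TNF receptor without a death domain that is known for its expression on Tregs. It lies at chr4:145213463-145246870 on the - strand. The 250 bases before its start site (GRCm38.p6, chr4:145246871-145247120, - strand) are shown as the upstream sequence of a gene that rose without holding any of the 3 motifs, and so are printed with no capitals.
Tnfrsf1b: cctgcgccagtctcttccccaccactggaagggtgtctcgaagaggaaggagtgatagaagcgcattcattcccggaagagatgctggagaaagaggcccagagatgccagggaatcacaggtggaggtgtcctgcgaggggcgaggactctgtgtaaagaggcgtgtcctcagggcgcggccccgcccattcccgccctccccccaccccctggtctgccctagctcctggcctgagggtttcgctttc
Tnfrsf1b had 7745, 5056 and 7978 normalized counts in synovium, 1400.1, 1812 and 1779 in arthritic nodes, and 1185, 778 and 1505 in control nodes. All synovial libraries exceeded all node libraries, and the node groups overlapped. The synovial mean was 6927 ± 1624 against 1663 ± 229, 4.16 times higher, with a log2 difference of 2.04 ± 0.23 (limma, adjusted p = 3.27e-05). Mouse 2 had the smallest within-mouse ratio, 2.79, against 5.53 and 4.49 in mice 1 and 3.

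Tnfrsf1a encodes TNFR1, the death-domain receptor for TNF, and lies at chr6:125349362-125362484 on the + strand. It was low throughout, at 260.04, 392 and 249 normalized counts in synovium, 276, 297 and 126 in arthritic nodes, and 186, 135 and 230.1 in control nodes. The synovial and arthritic node libraries overlapped. Its log2 difference between them was 0.43 ± 0.36, with a 95% interval of -0.35 to 1.21 (limma, adjusted p = 0.388), and its within-mouse ratios were 0.943, 1.32 and 1.98. Per kilobase of exon, the ratio of Tnfrsf1b to Tnfrsf1a was 20.2, 8.75 and 21.7 in synovial libraries, 3.45, 4.14 and 9.60 in arthritic node libraries, and 4.33, 3.93 and 4.44 in control node libraries. The ranges of synovium and arthritic node overlapped for this ratio (exact two-sided permutation p = 0.2; adjusted over 9 such ratio tests, 0.257). Synovium and control node did not overlap (exact p = 0.1, the smallest that 3 against 3 allows; adjusted 0.15).

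Of the other death-domain receptors, Fas, which encodes the receptor for Fas ligand and triggers apoptosis through FADD and caspase-8, lies at chr19:34290666-34327772 on the + strand. The AP-1 site was found in 2 of the 11 receptor windows, those of Fas and of Tnfrsf9 (15 bases before the inner start site of the latter), and in 7.81% of all promoters; the forkhead site was in none of the 11 and in 3.65% of all. The 250 bases before the Fas start site (GRCm38.p6, chr19:34290409-34290658, + strand) are shown for that site, which is in capitals and begins 211 bases before the start.
Fas: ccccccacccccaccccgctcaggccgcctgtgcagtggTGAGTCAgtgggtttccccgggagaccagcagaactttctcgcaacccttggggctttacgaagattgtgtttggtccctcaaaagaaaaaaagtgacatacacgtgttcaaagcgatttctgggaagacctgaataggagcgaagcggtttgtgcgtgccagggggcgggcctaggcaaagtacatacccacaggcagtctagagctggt
Fas had 4077, 6415 and 4027 normalized counts in synovium, 1960.1, 1681 and 1559 in arthritic nodes, and 1659, 1595 and 1297 in control nodes. Synovial libraries were again above all node libraries, and here library 2 was the highest. The mean rose 2.79 times from arthritic node to synovium, a log2 difference of 1.45 ± 0.18 (limma, adjusted p = 6.16e-05), with within-mouse ratios of 2.08, 3.82 and 2.58.

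Tnfrsf25 encodes DR3, the death-domain receptor for the ligand TL1A, and lies at chr4:152115934-152120119 on the + strand. It had 2459, 3015 and 3738 normalized counts in synovium, 1782, 1871 and 1924 in arthritic nodes, and 1672, 1677 and 1659.8 in control nodes. None of the 3 groups overlapped another for this gene. The tissue difference was the smallest of those called, 1.65 times by the means and 0.70 ± 0.14 on the log2 scale (limma, adjusted p = 0.00206). It fell short of 2-fold, and was 0.39 (adjusted p = 0.0396) when libraries were scaled to their totals, a scaling tried after seeing the data that moved the median of all genes by -0.31.

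Cd27 encodes the TRAF-binding receptor for CD70 that marks resting and memory lymphocytes, and lies at chr6:125232622-125237010 on the - strand. It had 6133, 7111 and 4441 normalized counts in synovium, 7369, 7365 and 7519.5 in arthritic nodes, and 7878, 6259.7 and 7279 in control nodes. Each synovial library lay below each arthritic node library, by 1.20, 1.04 and 1.69 times within mice 1, 2 and 3, but the synovial range overlapped that of control nodes. The log2 difference between synovium and arthritic nodes was -0.36 (SE 0.15, 95% interval -0.69 to -0.03) and was not called (limma, adjusted p = 0.0876). Its call depended on the scaling and on 1 library: it was -0.78 (adjusted p = 0.000531) after quantile normalization, which moved the median of all genes by -0.12, -0.67 (adjusted p = 0.00322) with library totals, and -0.51 (adjusted p = 0.0172) without synovial library 2. A microRNA gene, Mir8113, shares 129 exon bases and the strand with Cd27.

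Tnfrsf26, a mouse receptor related to the decoy receptors of the death ligand TRAIL, lies at chr7:143607659-143628722 on the - strand and was the 1 receptor gene of the 10 that fell. It had 826, 1202 and 528 normalized counts in synovium, 2301, 2112 and 1519 in arthritic nodes, and 1942, 1630.4 and 1712 in control nodes. All synovial libraries lay below all node libraries. Its arthritic node mean of 1977 ± 408 was 2.32 times the synovial mean of 852 ± 338, and the log2 difference was -1.27 (SE 0.25; limma, adjusted p = 0.00194). Within mice 1, 2 and 3 the node exceeded the synovium by 2.78, 1.76 and 2.88 times. The antisense gene E230032D23Rik overlaps 107 of its exon bases, with the same uncertainty as for Tnfrsf18.

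Tnfrsf14, which encodes HVEM, the receptor for LIGHT and for the inhibitory proteins BTLA and CD160, lies at chr4:154921933-154928563 on the - strand and was close to the limit of detection. Its raw reads numbered 17, 3 and 15 in synovium, 18, 22 and 33 in arthritic nodes, and 19, 27 and 10 in control nodes. The 3 reads of synovial library 2 have a 95% Poisson interval of 0.619 to 8.77 reads, which covers counting error only. The groups overlapped, and the log2 difference of -0.93 (SE 0.81, 95% interval -2.68 to 0.82) was not detectable at this depth (limma, adjusted p = 0.410).

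The plot of ratios within each arthritic mouse shows the order of the receptors and how far the mice spread.

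**Figure D2:**
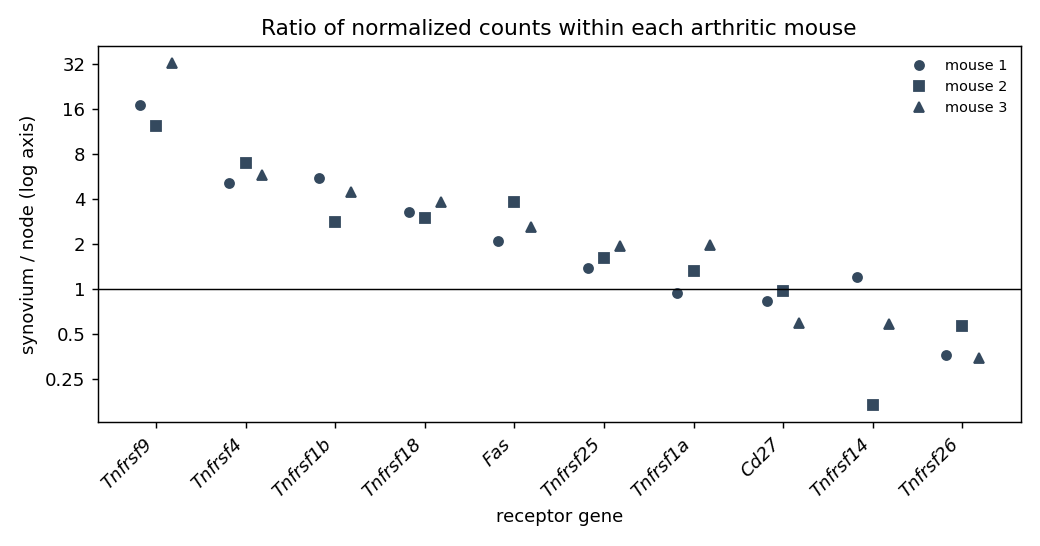
Synovial over node normalized count (log axis) for each receptor gene in arthritic mice 1, 2 and 3, marked by shape; the line is a ratio of 1. All 3 mice lie above the line for Tnfrsf9, Tnfrsf4, Tnfrsf1b, Tnfrsf18, Fas and Tnfrsf25 and below it for Cd27 and Tnfrsf26; for Tnfrsf9 the ratios run from 12.4 to 32.5.

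No mouse was highest throughout: mouse 3 had the largest ratios of Tnfrsf9, Tnfrsf18 and Tnfrsf25, mouse 2 those of Tnfrsf4 and Fas, and mouse 1 that of Tnfrsf1b. In the authors' deposited table, which compares the same tissues with DESeq2, the same 7 receptors had adjusted p-values under 0.05, in the same directions as here. That table gives Tnfrsf9 a log2 fold change of 4.29 and Tnfrsf4 one of 2.54. It gives adjusted p-values of 0.103 for Cd27, 0.538 for Tnfrsf1a and 0.610 for Tnfrsf14. The authors' values come from these libraries and are not independent of them.

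Arthritic and control nodes were compared to see whether disease changed the receptors outside the joint. None of the 10 was called (0 by limma, edgeR and DESeq2), where 0.343% of all genes were called by limma, and 2 of the 10 had an unadjusted p under 0.05 (Tnfrsf1b and Tnfrsf4), against 9.08% of all genes. The interval for Tnfrsf18 was narrow, from -0.26 to 0.17 on the log2 scale around -0.04, and that for Cd27 ran from -0.27 to 0.39 around 0.06. Tnfrsf1b had the largest difference, 0.57 (95% interval 0.06 to 1.07; limma, adjusted p = 0.499). For Tnfrsf4 the difference was -0.21 (interval -0.42 to -0.00; adjusted p = 0.549), which lies in the opposite direction to its difference between tissues.

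The remaining receptors had log2 differences between the nodes of 0.36 for Tnfrsf9 (-0.09 to 0.81), 0.19 for Fas (-0.19 to 0.58), 0.15 for Tnfrsf25 (-0.15 to 0.46) and 0.15 for Tnfrsf26 (-0.39 to 0.69). Tnfrsf1a, at 0.28 (-0.50 to 1.06), and Tnfrsf14, at 0.36 (-1.39 to 2.12), had the widest intervals, and adjusted p-values of the 10 ran from 0.499 to 0.955. These intervals and p-values use a spread shared with the synovial libraries. With only the 2 node groups in the fit, 0 receptors were called. The limma adjusted p was then 0.354 for Tnfrsf9, 0.543 for Tnfrsf25 and 0.520 for Tnfrsf1b. Libraries of the node groups did not overlap for Tnfrsf9 and Tnfrsf25, higher in arthritic nodes, and Tnfrsf4, lower, against 14.9% of all genes in either direction.

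Synovial Tregs were also set against control nodes, a comparison that differs in both tissue and disease and shares its synovial libraries with the one above. Higher calls covered 6 of the 10 receptors and 21.6% of all genes, and lower calls covered 1 of the 10 and 18.5% of all genes. Tnfrsf9 was 25.7 times higher in synovium by the means (log2 4.61 ± 0.21; limma, adjusted p = 1.17e-08), Tnfrsf1b 5.99 times (2.60 ± 0.23; adjusted p = 3.3e-06) and Tnfrsf4 5.09 times (2.35 ± 0.10; adjusted p = 7.63e-09). Tnfrsf18, Fas and Tnfrsf25 were 3.26, 3.19 and 1.84 times higher. The synovial libraries lay wholly above the control node libraries for 7 of the 10 receptors, these 6 and Tnfrsf1a, against 26.2% of all genes.

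Tnfrsf26 was 2.07 times lower in synovium than in control nodes, with a log2 difference of -1.12 (limma, adjusted p = 0.00359). Of the others, Tnfrsf1a was 0.71 higher on the log2 scale with libraries that did not overlap, and was not called (interval -0.07 to 1.49; adjusted p = 0.135). Cd27 was at -0.30 (-0.63 to 0.03; adjusted p = 0.138), and was called at -0.72 (adjusted p = 0.000802) after quantile normalization, at -0.61 (adjusted p = 0.0047) with library totals and at -0.45 (adjusted p = 0.0269) without synovial library 2. The plot of differences sets the 3 comparisons side by side.

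**Figure D3:**
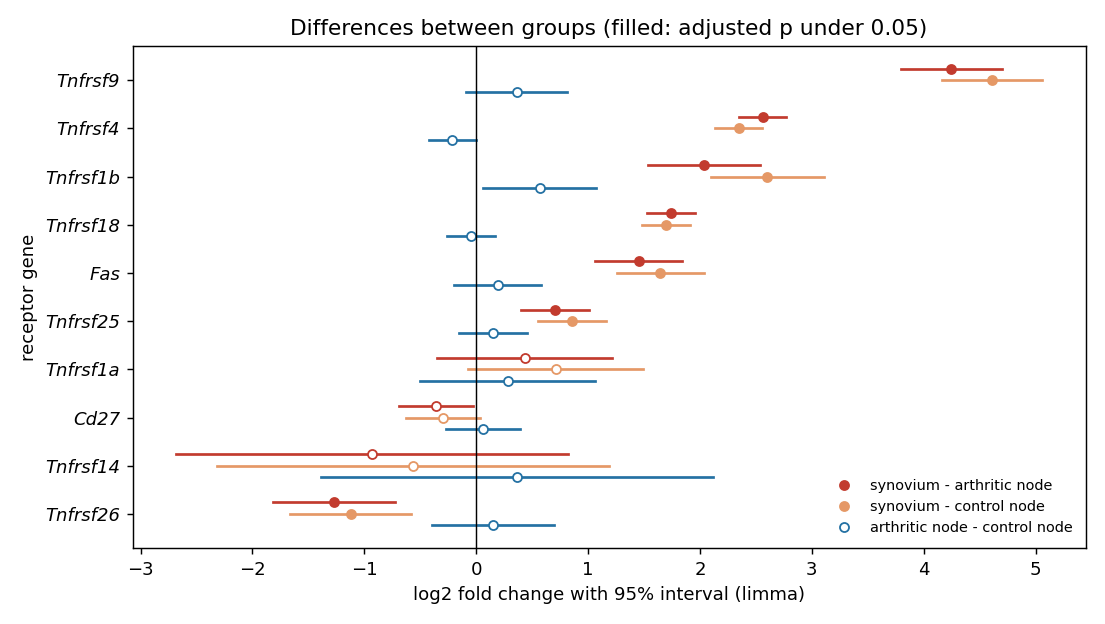
Log2 difference of normalized count for each receptor gene, with its 95% interval from limma, in the 3 comparisons (synovium minus arthritic node, synovium minus control node, arthritic minus control node); filled points have an adjusted p under 0.05. The 6 receptors that rose and Tnfrsf26 are filled in both comparisons with synovium, and no point is filled between the nodes.

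Levels were compared between receptors per kilobase of exon. In synovium the order by normalized count per kilobase was Tnfrsf4 (48925 ± 3980.4), Tnfrsf18 (21256 ± 2295), Tnfrsf9 (20691 ± 8277), Cd27 (2532 ± 580.2), Fas (2347 ± 662), Tnfrsf1b (1814 ± 425), Tnfrsf25 (1349 ± 281), Tnfrsf26 (265 ± 105), Tnfrsf1a (116 ± 30.7) and Tnfrsf14 (9.07 ± 5.77). The libraries of Tnfrsf18 and Tnfrsf9 overlapped, as did neighbours in the run from Cd27 to Tnfrsf25; the other neighbours were apart. In arthritic nodes Tnfrsf4 (8296), Tnfrsf18 (6329) and Cd27 (3186) led without overlap, Tnfrsf9 (1041), Fas (841) and Tnfrsf25 (817) followed with overlapping neighbours, then Tnfrsf26 (614) overlapping Tnfrsf1b (436), and Tnfrsf1a (89.9) and Tnfrsf14 (15.2) came last. The order in control nodes was the same, from 9604 for Tnfrsf4 to 12.2 for Tnfrsf14.

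Summed over the 10 genes, the level per kilobase was 90928 to 110187 in synovial libraries, 21286 to 22154 in arthritic node libraries and 21308 to 23058 in control node libraries. Tnfrsf4, Tnfrsf9 and Tnfrsf18 made up 90.3 to 92.9% of that sum in synovium, 71.9 to 72.6% in arthritic nodes and 74.1 to 76.6% in control nodes. The share of Tnfrsf9 was 14.9 to 27.3% in synovium against 4.35 to 5.40% and 3.53 to 3.66% in the nodes. That of Cd27 was 1.73 to 3.16% against 14.3 to 15.2% and 12.6 to 14.8%. The count of Cd27 itself was 1.26 times lower in synovium than in arthritic nodes by the means and was not called. Its smaller share thus mostly reflects the larger sum. Tnfrsf18 rose in count, and its share was 20.5 to 22.0% in synovium against 27.7 to 30.8% in arthritic nodes.

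**Figure D4:**
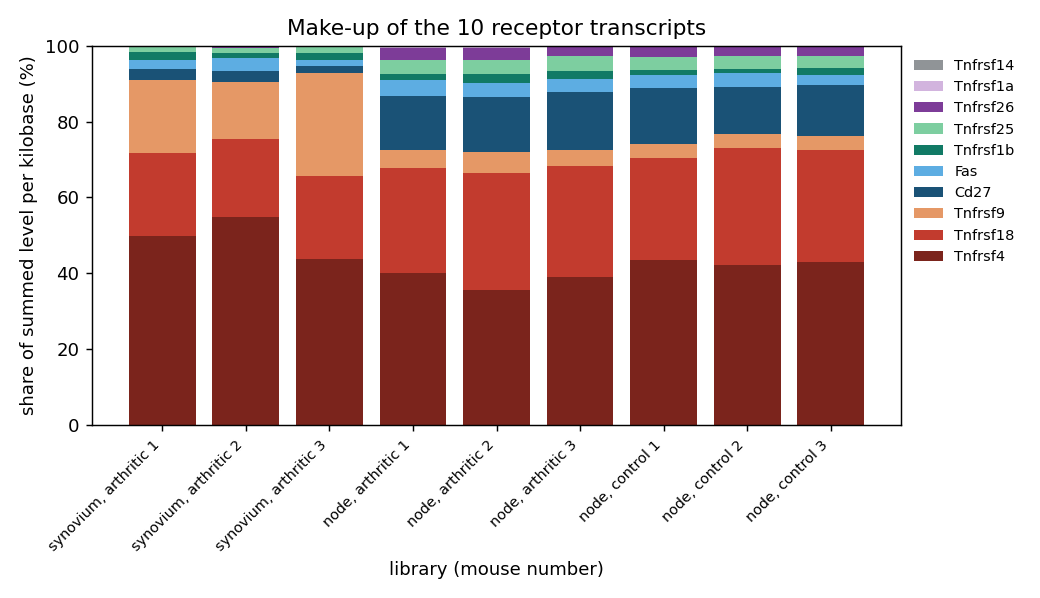
Share of each receptor gene (%) in the summed normalized count per kilobase of the 10 genes, as 1 stacked bar per library. The share of Tnfrsf9 is 14.9 to 27.3% in synovial bars and at most 5.40% in node bars, while that of Cd27 is at most 3.16% in synovium and at least 12.6% in nodes. The sum is larger in synovium, and the count of Cd27 itself was not called changed.

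Ratios of further pairs of receptors, chosen after their values were seen, were compared too. Tnfrsf9 stood at 0.388, 0.271 and 0.622 of Tnfrsf4 per kilobase in synovium, 0.116, 0.151 and 0.111 in arthritic nodes, and 0.0842, 0.0855 and 0.0823 in control nodes. Tnfrsf4 stood at 2.26, 2.68 and 2.02 times Tnfrsf18 in synovium, 1.45, 1.16 and 1.34 times in arthritic nodes, and 1.62, 1.36 and 1.44 times in control nodes. No 2 groups overlapped for the Tnfrsf9 to Tnfrsf4 ratio, and synovium overlapped neither node for the Tnfrsf4 to Tnfrsf18 ratio. Each of these exact permutation tests gave p = 0.1, the smallest possible, and 0.15 adjusted over the 9 ratio tests. They took the libraries as unpaired and could not pass 0.05, so they do not decide whether the ratios differ.

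The genes whose log2 values most resembled a receptor's over the 9 libraries were found among 8938 genes with a mean of 50 or more, leaving out the 10 receptors, predicted genes and antigen receptor segments. For Tnfrsf4 they were Klf6 (Pearson r = 0.995), Ppp1cc (0.995), Ndfip1, Irg1 and Adck3 (0.994 each). For Tnfrsf9 they were Pdcd1, the gene of the inhibitory receptor PD-1 (0.998), Fam107b (0.997), the cytokine gene Il5 (0.997), Arpc3 (0.997) and Slc16a6 (0.996). For Tnfrsf26 they were Tgtp2 (0.979), Tgtp1 (0.971), Trmt112 (0.970), Ppil3 (0.969) and Samhd1 (0.967). A gene that separates synovium from node in the same direction as a receptor tends to correlate with it. Of the 8938 genes, 410 exceeded 0.95 with Tnfrsf4, 442 with Tnfrsf9 and 35 with Tnfrsf26.

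Chromosome 4 carries 6 of the 10 genes, from Tnfrsf1b to Tnfrsf18, within chr4:145213463-156028895 (10.8 Mb, a stretch chosen after seeing the data). Among the 88 other tested genes there, 14.8% were called higher and 14.8% lower in synovium than in arthritic nodes, near the 17.9% and 15.9% of all genes, and their median log2 difference was -0.12.

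Other receptors of the superfamily were mostly sparse: 9 of 18 listed genes were expressed enough to be tested, and of these 4 rose and 3 fell from arthritic node to synovium (median 0.77), where 17.9% of all genes were called higher and 15.9% lower. Cd40, not called (2.28, limma adjusted p = 0.110), passed with the mouse number as a block (0.0492) and without control node library 2 (0.0461). Tnfrsf10b, the mouse receptor for TRAIL, rose from 26.3 ± 7.69 to 357 ± 72.0 normalized counts (log2 3.74; limma, adjusted p = 0.00047). Tnfrsf8, which encodes the activation receptor CD30, rose from 42.7 ± 26.3 to 404 ± 156 (3.29; adjusted p = 0.00207). Relt fell from 372 ± 33.1 to 85.4 ± 26.2, with a log2 difference of -2.15 (adjusted p = 0.000318). Tnfrsf13c, the receptor for the B cell factor BAFF, fell from between 22.6 and 57.7 to between 0 and 3.31 normalized counts, the latter at most 3 reads. Tnfrsf12a (log2 4.13, adjusted p = 0.0458), Tnfrsf22 (-1.54, 0.0141) and Tnfrsf13b (0.77, 0.0196) were called too. The call of Tnfrsf12a was lost with edgeR (adjusted p = 0.0940), with DESeq2 (0.156), with library totals and without any single one of the synovial libraries, of arthritic node libraries 2 and 3 or of control node library 3 (0.0548 to 0.176). That of Tnfrsf22 was lost without synovial library 1 (0.0523). That of Tnfrsf13b was lost with library totals (0.130), without synovial library 3 (0.0701) and without arthritic node library 1 (0.0571) or 2 (0.0556).

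Ligands and partners of the 10 receptors moved in both directions, with 3 of 11 tested genes called higher and 4 lower in synovium than in arthritic nodes (median -0.27), again beside 17.9% and 15.9% of all genes. Tnfsf9, the ligand of 4-1BB, had 702, 1216 and 556 normalized counts in synovium and 97.4, 175 and 88.2 in arthritic nodes, a log2 difference of 2.76 ± 0.36 (limma, adjusted p = 9.85e-05). Lta, which encodes lymphotoxin alpha, a ligand of both TNF receptors, had 127, 115 and 65.2 against 1391, 884 and 1083, a log2 difference of -3.47 (adjusted p = 1.14e-06). Both separations were complete, and Lta was higher still in control nodes, at 1623, 2058 and 2468, though not called between the nodes.

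Cd160 and Tnfsf14, partners of HVEM, fell by 4.35 and 1.86 on the log2 scale, and Btla, a further partner, fell by 0.60 (limma, adjusted p = 0.00112, 0.0059 and 0.0264). Btla no longer passed when synovial library 1 was left out (adjusted p = 0.0909), or arthritic node library 1 (0.112) or 3 (0.0515). Cd70, the ligand of CD27, had 34.2, 49.3 and 70.8 normalized counts in synovium and 2.61, 0 and 8.74 in arthritic nodes. Its log2 difference of 3.94 was called by limma (adjusted p = 0.0232) and not by edgeR (0.0777), and the same held for Tnfsf15, the ligand of DR3, at 4.09 (0.0165 against 0.0922). Cd70 also failed the test without synovial library 2 or 3 or arthritic node library 1 or 2 (adjusted p = 0.0531 to 0.0844), and Tnfsf15 without synovial library 2 or 3 or arthritic node library 2 or 3 (0.0506 to 0.0655). Tnf itself was not called, with 288 ± 82.8 in synovium against 396 ± 86.0 (log2 difference -0.48, adjusted p = 0.180), although it passed with library totals (-0.79, 0.0306). Fasl, the ligand of Fas, had 689.6 ± 224 against 436 ± 102 and was not called (0.63, limma adjusted p = 0.153). It passed with the mouse number as a block (0.0265) and without synovial library 3 (0.0457). Tnfsf4, the ligand of OX40, had 27.4 ± 27.5 against 21.5 ± 10.3 (-0.05, adjusted p = 0.982), and Tnfsf18, the ligand of GITR, had no read in any synovial library.

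Adaptors that act below these receptors were called higher for 7 and lower for 3 of 15 genes (median 0.41), against 17.9% and 15.9% of all genes. Those that rose included Traf4, Traf3 and Traf1, of which Traf1 went from 2158 ± 203 to 7173 ± 1197 normalized counts (log2 1.72 ± 0.15; limma, adjusted p = 3.05e-06), and the TRAF-bound ubiquitin ligases Birc2 and Birc3 (1.60 and 1.56). The 3 that fell were Traf5 (-1.40), Casp8, which encodes the caspase that acts below Fas (-0.87), and Tradd, the death-domain adaptor of TNFR1 (-0.55; adjusted p = 0.0145, and 0.0650 without arthritic node library 3). Traf6 rose by 0.48 (adjusted p = 0.0152), and its call was lost with quantile normalization (0.103), with library totals (0.355) and without arthritic node library 1 (0.0555) or 2 (0.0534). Traf2 and Fadd were among the 5 not called. Traf2, at 0.41 (limma adjusted p = 0.0922), passed with the mouse number as a block (0.0255) and without control node library 1 (0.0314).

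NF-kB factors and inhibitors were called higher for 11 of 12 genes and lower for 0 (median 1.88, against 17.9% and 15.9% of all genes). The deubiquitinase gene Cyld was the exception, at 0.18 (limma, adjusted p = 0.351). Tnfaip3, which encodes the feedback inhibitor A20, rose from 1759 ± 148 to 29572 ± 4389.97 normalized counts (log2 4.06 ± 0.12; adjusted p = 3.2e-09). Rel rose by 3.93, Nfkb2 by 2.30, Nfkbia by 2.22 and Relb by 2.02. Rela, at 0.69, was called (adjusted p = 0.0148) but not after quantile normalization (0.0784), with library totals (0.153), or without synovial library 1 (0.0544) or 3 (0.0643) or arthritic node library 3 (0.0651). The plot of pathway genes places the lists beside the 10 receptors.

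**Figure D5:**
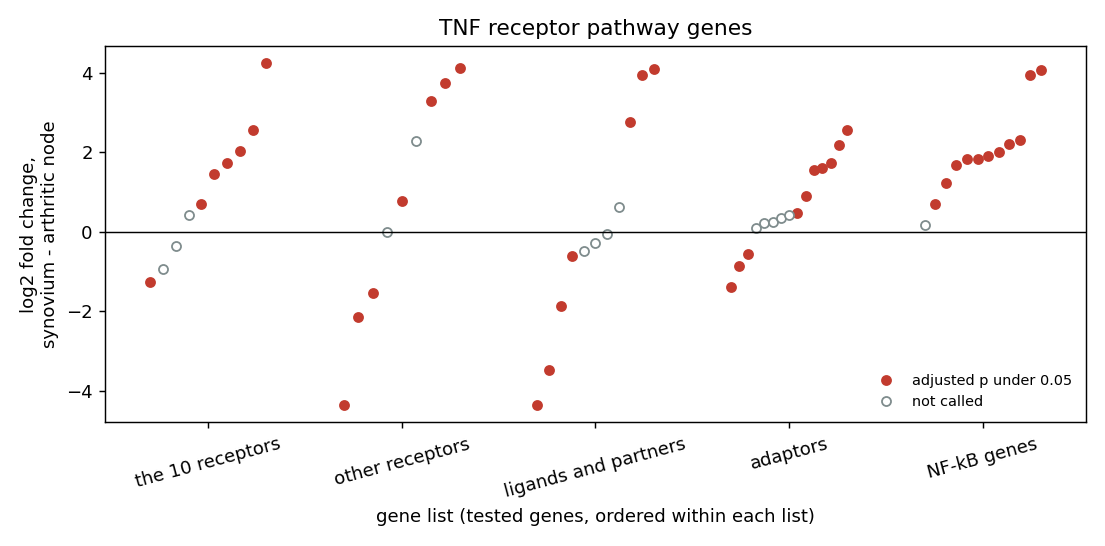
Log2 difference of normalized count, synovial minus arthritic node Tregs, for each tested gene of the 10 receptors and of 4 lists of pathway genes, ordered within each list; filled points have a limma adjusted p under 0.05. Of the NF-kB genes 11 of 12 are filled and above 0, whereas other receptors, ligands and adaptors lie on both sides of 0.

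Measures of other cells and of tissue handling were taken in the same libraries. Genes known to respond to tissue digestion and stress were called higher in synovium for 13 of 15 (median 3.26; 17.9% of all genes), and their summed normalized count was 139885 to 187374 in synovium, 20774 to 31414 for arthritic nodes and 20315 to 26290.2 for control nodes. Among them the heat shock gene Hspa1a, the largest, differed by 10.43 on the log2 scale, Atf3 by 8.46 and Fos by 5.19, and their part in the receptor differences was not tested. Dendritic cell markers summed to 1034 to 1109.6 in synovium and 90.4 to 162 in arthritic nodes, carried by Zbtb46 and Xcr1. Of the 3 tested, 2 were called higher in synovium and 0 lower (median log2 difference 4.29), against 17.9% and 15.9% of all genes. Itgax and Clec9a were at 0 in every synovial library, and Clec9a, Flt3 and Siglech in every arthritic node library. Macrophage markers summed to 79.8 to 314 in synovium and 31.8 to 535 in arthritic nodes, and neutrophil markers to 6.61 to 52.8 and 0 to 12.2.

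Other marker sums in synovium and arthritic nodes were 224 to 464 and 409.9 to 688 for B and plasma cells. They were 2687 to 4923 and 2820.0 to 3396 for fibroblast genes, and 1478 to 1741 and 2311 to 2967 for endothelial genes. Kdr and Emcn were at 0 in both groups, whereas Tek and Vwf were at 0 in arthritic nodes and had reads in synovium. Only 1 endothelial gene was tested, and it was called lower in synovium (log2 difference -0.76), beside 15.9% of all genes. For CD8 and NK cells the sums were 166 to 253 and 153 to 371, with Ncr1 at 0 in both groups and Cd8a at 0 in synovium. Among the macrophage genes Cd14 was called higher in synovium (log2 5.29, limma adjusted p = 0.00516) and 3 of the 4 tested were not called. Most of the fibroblast sum was Thy1, which T cells also express; the 6 fibroblast genes tested had a median log2 difference of 2.33, and their lowest limma adjusted p was 0.0696, for Dcn. Col1a1 had 38.6, 1.17 and 402 normalized counts in synovial libraries 1 to 3 and Dcn 16.5, 25.8 and 455, so library 3, in which Tnfrsf9 was highest, was also highest for these. The part of other cells in the receptor differences was not tested.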

How the data were processed

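RNA sequencing of Tregs sorted from synovium and draining nodes gave the 9 libraries; groups and mouse numbers came from the sample titles. Per the labels' protocols, RNA was prepared with Trizol and a directional library kit was used. Per the submitters' processing notes, the tools were HISAT2, HTSeq and DESeq2, on mm10; for their versions and the strand setting, nothing is given in the sources used here. Each gene's deposited signal is its read count divided by a size factor per library, made by the authors: all nonzero values were whole multiples, within 0.01, of a constant per library, and 3 reads correspond to 2.61 to 3.52 normalized counts. Reads were recovered from those constants; for control node library 1 the constant is so close to 1 that the recovery rests on the full decimals. The authors' deposited comparison table gives a mean normalized signal, log2 fold changes with errors, a Wald score and p-values, per the file headers; rerunning DESeq2 on synovium over arthritic node matched its log2 fold changes within 0.01 for 100% of tested genes.

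Differences were tested with limma 3.58.1 under R 4.3.3 (lmFit, eBayes with trend) on log2(value + 1), over the 11357 genes averaging at least 10, with all 9 libraries in the fit, two-sided, Benjamini-Hochberg adjusted. Log2 differences are on that scale, which understates those of low genes. Alternatives changed the pseudocount, filter, scaling, tool (edgeR 4.0.16, DESeq2 1.42.0 on recovered reads), libraries and threshold, and added the mouse number as a block. The titles pair synovial and node libraries of arthritic mice; residuals of same-numbered libraries correlated at 0.02, 0.05 and 0.09. Ratios were tested by exact permutation. Genes named outside the 10 receptors are the 5 called genes with the largest log2 differences of each list between tissues, with exceptions that illustrate a ligand, an adaptor or a call that depends on the processing, chosen after their values were seen. The members and lists were chosen with earlier results of these data known. Positions and exon lengths are those of GENCODE vM21 (GRCm38, equal to mm10), and promoters those of RefSeq (GRCm38.p6), which matched 9 of 10 receptors. The motifs were chosen with the fold changes known. Scripts were tested on simulated data.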

Additional observations from a re-analysis of the deposited data

How the results depend on the processing

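The number of receptors called was 6 to 8 of 10 for synovium against either node and 0 between the nodes under every alternative tried, including scaling to library totals, which was added after seeing the data. Leaving out each library in turn gave 7 to 8 and 0. With the mouse number as a replicate block, 7, 7 and 0 receptors were called, and no receptor changed its call; between the nodes and against control nodes the numbers are only shared names, with residual correlations of -0.02 to 0.07. Of 627 values of single receptors under an alternative, 616 kept their direction and side of the threshold. Many of these could not turn their sign. The filters, the 2-group fit, the block, the 2-fold threshold and leaving out a library of the third group keep the log2 difference fixed. Those settings could alter only the call. Signs turned in 3, each within its error: Cd27 between the nodes was -0.0298 without control node library 2 (leave-one-out range -0.0298 to 0.136), Tnfrsf14 between the nodes was -0.0206 without control node library 3 (-0.0206 to 0.642), and Tnfrsf14 against control nodes was 0.119 without synovial library 2 (-0.950 to 0.119); the cause was not tested. Calls of Cd27 were gained in 6 and those of Tnfrsf25 lost in 2, where at least 2-fold was asked. Over all genes, 39 were called between the nodes by limma, 37 by edgeR and 173 by DESeq2. The share of tissue calls that were higher was 52.9% by limma, 42.2% after quantile normalization and 29.3% with library totals, which moved the median of all genes by -0.31. A mean of 50 left Tnfrsf14 untested, and its few reads limit what its values show.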
